A study of Mus musculus with 6 samples.

Results

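The abundant long noncoding RNA (lncRNA) genes of hematopoietic stem cells (HSCs) comprised 61 genes. They were chosen by their measured counts: the deposited gene table names them as lncRNA, and their mean raw count was 500 or more over all 6 libraries, with H19 and Meg3 left out. They were 61 of 3851 lncRNA genes in the table (1.58%), which lists 27198 genes in all. By the listed positions, 21 of the 61 overlapped a protein-coding gene by at least 1 base on either strand, and 40 overlapped none. The HSCs came from bone marrow of wild-type male C57BL/6 mice 8 to 10 weeks old and were sorted as negative for lineage markers, CD34 and CD135 and positive for Sca-1 and c-Kit. Ctrl mice received vehicle, and l-FA mice received ferulic acid (FA), a plant phenolic compound with antioxidant activity, intraperitoneally at 50 mg/kg once daily for 30 days. There were 3 Ctrl and 3 l-FA libraries, and the number of mice behind each library is not stated in the sources used here, so that p-values measure the spread between libraries, which may be technical.

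lncRNAs are long transcripts that are not known to be translated into a conserved protein. Some act in the nucleus, where Malat1 collects in nuclear speckles and Neat1 is the scaffold of paraspeckles, some act in the cytoplasm, such as Norad, which binds Pumilio proteins, and some are hosts whose introns carry small nucleolar RNAs (snoRNAs). Many others lie against a protein-coding gene or are transcribed copies of an mRNA, and for these the reads of the lncRNA and of its partner can be hard to separate. The libraries here were made from amplified cDNA with a kit that does not mark strand. Reads of a gene and of a gene on the opposite strand at the same place therefore cannot be told apart.

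Library totals ranged from 19287735 to 20380610 counts. The 61 genes took 0.531% to 0.549% of all counts in each library. Among lncRNA counts alone they took 56.4% to 57.2% in Ctrl and 52.7% to 53.1% in l-FA, so the share was lower in every l-FA library. Just inside the limit of 500 were Gm47469 (mean count 504) and 2410006H16Rik (501), and just outside it were Snhg17 and Mir142hg (both 499.2). Of the 61, 48 reached a mean of 500 in both groups, whereas 11 reached it only in l-FA and 2 only in Ctrl. As for the sorted cells, all 12 HSC marker genes examined were detected, and 8 of them were higher and 1 lower in l-FA by edgeR's adjusted p. At an adjusted p under 0.05, 25.5% of all genes tested were higher and 25.0% were lower. Of 12 neutrophil and monocyte marker genes, 10 were lower past 2-fold and 2 were higher, where 5.10% of all genes tested were lower past 2-fold. The summed level of these markers was 23305 to 24156 CPM (counts scaled to the library total) in Ctrl and 6155 to 6471 CPM in l-FA. No gene of either list was at 0. Transcripts of the markers sorted as negative were present and rose as well, Cd34 from 1343 ± 18.4 to 1579 ± 38.2 CPM (SD, n = 3; adjusted p = 0.000286 from edgeR) and Flt3, which encodes CD135, from 759 ± 3.43 to 1183 ± 19.8 CPM (SD, n = 3; adjusted p = 3.95e-06 from edgeR). In bulk libraries such as these, fewer cells of a type and less RNA per cell cannot be told apart.

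Sequences are given first for the genes whose values carry the results. The windows below run from 250 bases before to 50 bases after the RefSeq transcription start, on build GRCm38.p6, 5′ to 3′ on the strand of the gene. Capitals mark matches to the motifs searched on both strands, which were GGGCGG (bound by SP factors), then CACGTG (the E-box of MYC and USF proteins), then CCAAT, then TATAAA, and then TTCNNNGAA (bound by STAT proteins). D17H6S56E-5 and AI506816 are shown because they held the most counts, Firre and I730030J21Rik because they rose, and Malat1 because it fell.
D17H6S56E-5, chr17:35000697-35000996, minus strand: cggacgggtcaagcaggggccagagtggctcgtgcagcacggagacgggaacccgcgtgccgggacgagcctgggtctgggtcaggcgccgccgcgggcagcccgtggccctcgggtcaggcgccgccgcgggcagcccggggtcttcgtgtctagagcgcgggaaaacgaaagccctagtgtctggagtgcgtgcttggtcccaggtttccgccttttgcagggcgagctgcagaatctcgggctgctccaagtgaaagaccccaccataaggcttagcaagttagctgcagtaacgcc
AI506816, chr5:23712618-23712917, minus strand: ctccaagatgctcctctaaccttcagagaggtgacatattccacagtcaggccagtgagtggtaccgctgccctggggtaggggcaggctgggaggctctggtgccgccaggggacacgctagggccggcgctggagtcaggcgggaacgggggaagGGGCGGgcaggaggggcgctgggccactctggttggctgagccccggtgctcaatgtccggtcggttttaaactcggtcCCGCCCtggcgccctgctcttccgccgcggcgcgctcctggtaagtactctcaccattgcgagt
Firre, chrX:50635272-50635571, minus strand: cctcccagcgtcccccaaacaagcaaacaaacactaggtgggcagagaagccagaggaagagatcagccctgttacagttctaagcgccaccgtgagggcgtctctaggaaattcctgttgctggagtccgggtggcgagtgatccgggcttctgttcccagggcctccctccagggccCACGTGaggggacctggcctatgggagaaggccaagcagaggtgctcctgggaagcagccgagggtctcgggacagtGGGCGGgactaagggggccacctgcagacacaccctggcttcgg
I730030J21Rik, chr15:100732688-100732987, minus strand: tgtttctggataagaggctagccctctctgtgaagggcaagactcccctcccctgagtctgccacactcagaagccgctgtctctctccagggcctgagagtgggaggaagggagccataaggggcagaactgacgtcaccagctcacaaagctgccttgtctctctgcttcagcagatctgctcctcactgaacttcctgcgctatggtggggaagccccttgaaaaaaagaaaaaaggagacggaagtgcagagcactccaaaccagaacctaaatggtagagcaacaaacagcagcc
Malat1, chr19:5802623-5802922, minus strand: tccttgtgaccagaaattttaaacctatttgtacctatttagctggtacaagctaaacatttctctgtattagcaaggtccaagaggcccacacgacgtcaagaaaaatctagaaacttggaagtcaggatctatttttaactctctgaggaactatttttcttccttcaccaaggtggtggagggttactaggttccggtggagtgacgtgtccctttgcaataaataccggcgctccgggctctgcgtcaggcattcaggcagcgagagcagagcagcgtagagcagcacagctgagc
Of the 61 genes, 29 had a RefSeq window by symbol, and the first listed window of each was counted. GGGCGG was found in 17 of the 29 (58.6%) and in 35.9% of the windows of all 27025 genes in that collection. The shares were 34.5% and 37.9% for CCAAT, 13.8% and 14.2% for TATAAA, and 10.3% and 7.24% for CACGTG. TTCNNNGAA was in none of the 29 windows and in 8.47% of all windows. The number of CG dinucleotides had a median of 15 in the 29 windows and 7 in all windows. These matches describe the letters of the windows, and the windows printed above differ: AI506816 holds GGGCGG on both strands, Firre holds GGGCGG and CACGTG, and no motif searched lies in the windows of D17H6S56E-5, I730030J21Rik and Malat1.

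Sequence copies are the other feature that bears on these counts, because a read from a copy cannot always be placed. Printed are 3 examples, each the first 60 bases of the longest run of identical letters between the transcripts of a lncRNA gene and those of another gene in GENCODE M21. Gm11505 shared a run of 208 bases with the coding sequence of Mpo, in reverse complement, Gm10076 shared 75 bases with the coding sequence of Rpl41, and Gm7292 shared 651 bases with Norad.
Gm11505 and Mpo: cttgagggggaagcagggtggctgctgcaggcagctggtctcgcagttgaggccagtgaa
Gm10076 and Rpl41: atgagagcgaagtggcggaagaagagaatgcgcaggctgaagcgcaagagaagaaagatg
Gm7292 and Norad: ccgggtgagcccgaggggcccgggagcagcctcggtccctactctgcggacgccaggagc
Over the 52 genes found in M21 by identifier, the share of a gene's words of 50 bases that also occur in transcripts of another gene, on either strand, was under 1% for 19 genes and 50% or more for 9 genes.

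HSCs of l-FA-treated mice were compared with those of Ctrl mice to ask which abundant lncRNAs differed after FA. Most of the differences were small. With edgeR's quasi-likelihood test adjusted over the 16520 genes tested, 24 of the 61 genes were higher and 12 were lower in l-FA at an adjusted p under 0.05, and 25 did not pass. At that limit 25.5% of all genes tested were higher and 25.0% were lower, and among the 7604 genes tested whose mean count was 500 or more, 25.4% were higher and 32.9% were lower. With a fold change above 2 required as well, 1 gene was higher, namely 9030619P08Rik, and 3 were lower, namely Gm11505, Erdr1x and C030034L19Rik. Both directions together, this is 6.56% of the 61 genes, beside 11.8% of all genes tested and 1.66% of genes with a mean count of 500 or more. By direction, the shares of all genes tested at both limits were 6.68% higher and 5.10% lower. Among genes with a mean count of 500 or more they were 0.460% higher and 1.2% lower. The 3 l-FA libraries all lay above the 3 Ctrl libraries for 29 of the 61 genes and all below them for 14, where 30.4% of all genes tested lay above and 29.9% below. The median log2 fold change was 0.12 over the 61 genes, 0.0035 over all genes tested and -0.038 over genes with a mean count of 500 or more. For the 48 genes that reached 500 in both groups the median was 0.079, with 16 higher and 10 lower and only Gm11505 past 2-fold. The 1320 less abundant lncRNA genes tested had a median of 0.20, and 25.5% of them passed both limits.

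**Figure D1:**
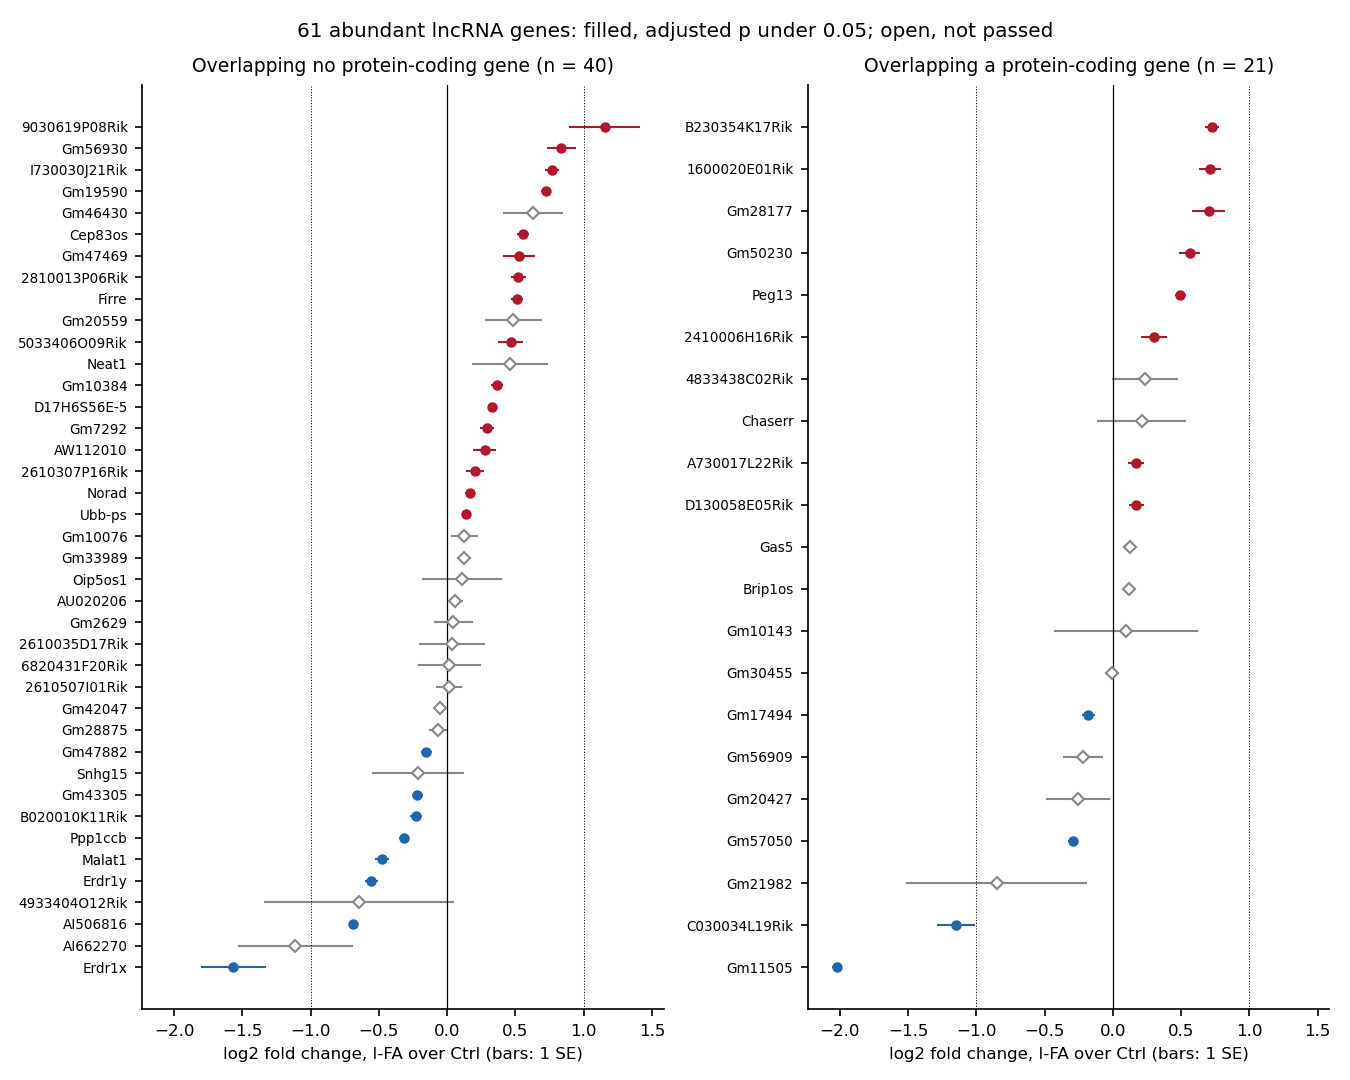
Log2 fold change (l-FA over Ctrl, horizontal axis, bars 1 SE) of the 61 abundant lncRNA genes, 40 that overlap no protein-coding gene (left) and 21 that overlap one (right). Filled points passed an adjusted p under 0.05 (24 higher, 12 lower), open points did not (25), and dotted lines mark 2-fold; 4 genes passed both limits.

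**Figure D2:**
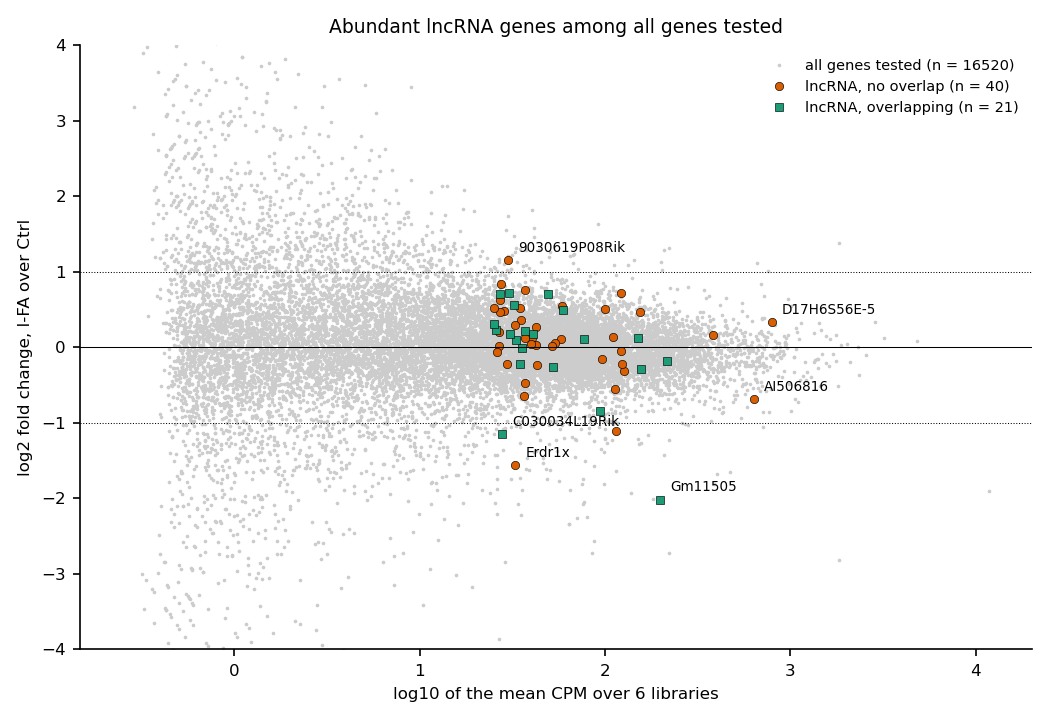
Log2 fold change (vertical axis, l-FA over Ctrl) against the log10 of the mean CPM for all 16520 genes tested (grey), with the 61 abundant lncRNA genes on top. Most of the 61 lie between the dotted lines that mark 2-fold, and 360 grey genes lie outside the axis limit of 4.

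Positions are those of the deposited table, and GRCm39 is the build in the submitters' processing notes. The CPM values above and below are after TMM scaling, and they compare a gene between libraries but not genes with each other. Per length, the highest of the 52 genes with an exon length in M21 was Gm11505, with 268 CPM per kilobase of exon, followed by AI506816 (142), Gm10076 (106), Gm19590 (102), Erdr1y (100) and Norad (77.6). At the low end were Gm33989 (2.25) and Chaserr (4.29), and Malat1 was also low, with 5.30 CPM per kilobase. By the FPKM values of the authors the first 5 were Gm11505 (263), Gm57050 (119), Ppp1ccb (87.4), Norad (72.3) and AI506816 (70.4). The gene length implied by the FPKM values was longer than the listed span for 23 of the 61 genes, among them Gas5 (60525 bases against a span of 4125), so FPKM values put these genes low.

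Of the nuclear and housekeeping lncRNAs, Malat1 fell, Norad rose slightly and Neat1 did not pass the test. Malat1 (ENSMUSG00000092341, chromosome 19, 5845717 to 5852706, overlapping no protein-coding gene) had 45.0, 43.2 and 41.2 CPM in the Ctrl libraries and 31.7, 30.6 and 30.4 CPM in the l-FA libraries. Every l-FA library lay below every Ctrl library. Its mean went from 43.1 ± 1.91 to 30.9 ± 0.691 CPM (SD, n = 3), a log2 fold change of -0.48 (SE 0.052, adjusted p = 0.000466 from edgeR). Norad (ENSMUSG00000102869, chromosome 2, 156229980 to 156234921) had 371, 364 and 342 CPM in Ctrl and 396, 398 and 416 CPM in l-FA. The groups did not overlap, and the log2 fold change was 0.17 (SE 0.037, adjusted p = 0.00954 from edgeR). Gm7292, the gene on chromosome 6 with 77.5% of its words of 50 bases in Norad, had a log2 fold change of 0.29 (SE 0.050, adjusted p = 0.00333 from edgeR) at a level of 29.5 ± 0.644 CPM in Ctrl (SD, n = 3). Neat1 (ENSMUSG00000092274, chromosome 19, 5874736 to 5895898) had 129, 136 and 124 CPM in Ctrl and 267, 123 and 144 CPM in l-FA. The first l-FA library stood above all others, and the other l-FA libraries overlapped with Ctrl. Its log2 fold change was 0.46 (SE 0.28, adjusted p = 0.212 from edgeR) and was 0.061 without the first l-FA library.

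Paraspeckles are nuclear bodies that Neat1 forms together with RNA-binding proteins, and 30 genes of such proteins were tested. Of these, 5 were higher and 8 were lower at an adjusted p under 0.05 by edgeR, where 25.5% and 25.0% of all genes tested were, with a median log2 fold change of -0.036. The largest fall that passed was in Sfpq, a core paraspeckle protein, with 109 ± 1.15 CPM in Ctrl and 56.2 ± 2.26 CPM in l-FA (SD, n = 3) and a log2 fold change of -0.96. The largest rise was in Zc3h6, with a log2 fold change of 1.33.

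Among the 3 abundant genes on the list of snoRNA hosts, 2410006H16Rik rose, and Gas5 and Snhg15 did not pass the test. Gas5 (ENSMUSG00000053332, chromosome 1, 160861992 to 160866116), which holds 10 listed snoRNA genes, had 151, 136 and 148 CPM in Ctrl and 162, 158 and 154 CPM in l-FA. All l-FA libraries lay above all Ctrl libraries, but the log2 fold change of 0.12 (SE 0.048, adjusted p = 0.0717 from edgeR) did not pass. Snhg15, with Snora9 inside, had 49.1, 23.6 and 22.6 CPM in Ctrl and 30.2, 19.9 and 32.0 CPM in l-FA. Its first Ctrl library stood more than 2-fold above the other Ctrl libraries, and the log2 fold change was -0.22 (SE 0.34, adjusted p = 0.635 from edgeR). 2410006H16Rik, the host of Snord49a, Snord49b and Snord65, had 22.6 ± 2.68 CPM in Ctrl and 27.9 ± 1.09 CPM in l-FA (SD, n = 3). Its groups did not overlap, and its log2 fold change was 0.30 (SE 0.095, adjusted p = 0.0356 from edgeR), although 4 of the 6 fits that left out 1 library gave an adjusted p over 0.05, from 0.0579 to 0.0910.

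The 5′ ends of these hosts and of D17H6S56E-5, the mouse counterpart of the human host SNHG32, are printed because snoRNA hosts often begin with a run of pyrimidines, the 5′ terminal oligopyrimidine that also marks mRNAs of ribosomal proteins. The windows hold 50 bases on GRCm38.p6, start 15 bases before the RefSeq start, and have the first 12 transcribed bases in capitals.
Gas5, first listed start: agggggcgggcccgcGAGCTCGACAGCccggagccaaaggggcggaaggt
Gas5, second listed start: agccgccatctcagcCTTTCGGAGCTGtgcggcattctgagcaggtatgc
D17H6S56E-5: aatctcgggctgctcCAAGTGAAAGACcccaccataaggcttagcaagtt
Snhg15: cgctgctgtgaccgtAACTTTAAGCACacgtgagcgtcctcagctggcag
2410006H16Rik: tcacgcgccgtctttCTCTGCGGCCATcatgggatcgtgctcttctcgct
The pyrimidine run at the start was 5 bases long at the second listed start of Gas5 and 4 in 2410006H16Rik, but 1 in D17H6S56E-5 and 0 in Snhg15 and at the first listed start of Gas5. A start with C and 4 further pyrimidines was found in 1 of the 29 windows, which was that of Oip5os1 (3.45%, the second Gas5 window not being counted), and in 2.49% of all windows. Of the 21 snoRNA host lncRNA genes listed in the table, 20 were tested. By edgeR's adjusted p, 2 were higher (2410006H16Rik and Snhg16), 1 was lower (Snhg1) and 17 did not pass. The shares of all genes tested were 25.5% higher and 25.0% lower. Only 3 of the 20 hosts were among the 61 abundant genes. Of the 1320 less abundant lncRNA genes tested, 28.4% were higher and 14.2% were lower. D17H6S56E-5, which rose, was not on the list of snoRNA hosts. The genes of 18 proteins that assemble or belong to snoRNA particles were tested as well. Of these, 15 were lower and 3 did not pass at an adjusted p under 0.05 by edgeR, where 25.0% of all genes tested were lower, with a median log2 fold change of -0.37 beside 0.0035 over all genes tested, and Naf1 fell most (-0.99). Gas5 RNA is known to be degraded by nonsense-mediated decay when it is translated. Of 20 genes of decay factors, 11 were lower and 3 were higher by the same test, beside 25.0% and 25.5% of all genes tested, from Upf1 (log2 fold change -0.77) to Smg6 (0.28).

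The genes with the most counts moved in opposite directions. D17H6S56E-5 (ENSMUSG00000120992, chromosome 17, 35215654 to 35219393) had 726, 694 and 687 CPM in Ctrl and 880, 876 and 891 CPM in l-FA. It rose in every l-FA library, with a log2 fold change of 0.33 (SE 0.025, adjusted p = 0.000121 from edgeR). It lies 570 bases from Vars, the gene of a valyl-tRNA synthetase, whose log2 fold change was -0.045 (adjusted p = 0.305 from edgeR). AI506816 (ENSMUSG00000105987, chromosome 5, 23903294 to 23917684) had 771, 792 and 793 CPM in Ctrl and 479, 490 and 491 CPM in l-FA. It fell in every l-FA library, from 785 ± 12.5 to 487 ± 6.58 CPM (SD, n = 3), with a log2 fold change of -0.69 (SE 0.021, adjusted p = 4.84e-06 from edgeR). Among the genes that overlap no protein-coding gene and passed the test, only Erdr1x had a larger fall. The protein-coding gene nearest to AI506816, Srpk2, the gene of a kinase of splicing factors, lies 13679 bases away and rose (log2 fold change 0.32, adjusted p = 0.000489 from edgeR).

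Other genes with known roles rose. Firre (ENSMUSG00000085396, chromosome X, 49644621 to 49724198), a nuclear lncRNA with repeated elements that contacts several chromosomes, had 85.1, 81.1 and 80.3 CPM in Ctrl and 112, 120 and 120 CPM in l-FA. The groups were well apart, and the log2 fold change was 0.51 (SE 0.043, adjusted p = 0.000181 from edgeR). Peg13 (ENSMUSG00000106847, chromosome 15, 72677449 to 72682173), an imprinted gene expressed from the paternal copy, had 50.6, 49.5 and 48.3 CPM in Ctrl and 67.6, 70.6 and 70.6 CPM in l-FA. Peg13 rose by 0.49 on the log2 scale (SE 0.039, adjusted p = 0.000147 from edgeR). Peg13 lies wholly within an intron of Trappc9 on the same strand, without exon overlap, and Trappc9 had a log2 fold change of 0.11 (adjusted p = 0.0678). AW112010, which is induced in immune cells by inflammatory signals, had 37.9, 35.3 and 42.7 CPM in Ctrl and 45.1, 45.2 and 49.9 CPM in l-FA. The log2 fold change was 0.27 (SE 0.082, adjusted p = 0.0301 from edgeR), and with the first or second Ctrl or the third l-FA library left out the adjusted p was 0.0763, 0.0739 and 0.0781. Oip5os1, also called Cyrano, which carries a site that pairs with a microRNA and leads to its decay, had 59.3, 74.9 and 32.7 CPM in Ctrl and 49.95, 70.6 and 59.1 CPM in l-FA. The groups overlapped, and the adjusted p was 0.788 by edgeR. Of the lncRNA genes listed by role, whether abundant or not, 2 of 4 imprinted genes tested were higher and 1 was lower, 2 of 4 genes of X inactivation were higher, 1 of 7 microRNA hosts was higher and 3 were lower, and 3 of 16 genes with reported roles in blood or immune cells were higher and 1 was lower, all by edgeR's adjusted p. Ftx stands on the lists of X inactivation and of microRNA hosts and is counted in both, and the shares of all genes tested were 25.5% higher and 25.0% lower. Some of these calls rest on few counts. Tsix and Airn, counted as higher, had mean counts of 6.33 and 10.0, and Hoxaas2, the lower blood or immune gene, had 8.83.

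**Figure D3:**
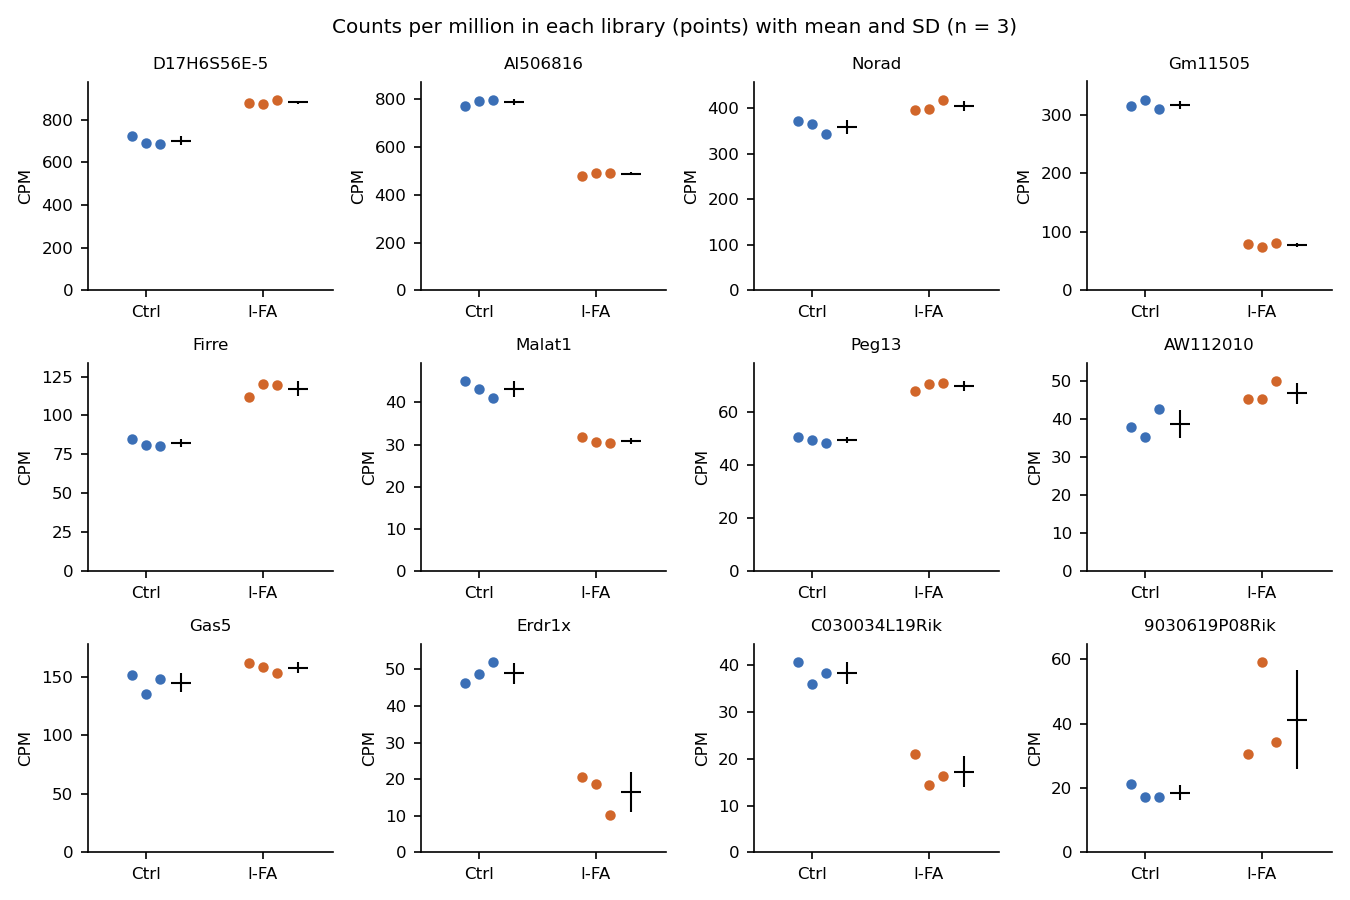
CPM (vertical axes, from 0) of 12 abundant lncRNA genes in each of the 3 Ctrl and 3 l-FA libraries (points), with the mean and SD beside them. Gm11505, Erdr1x and C030034L19Rik lie at well under their Ctrl level in all l-FA libraries, while 9030619P08Rik has its second l-FA library (59.0 CPM) above the other l-FA libraries (30.5 and 34.3 CPM).

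Among genes that overlapped no protein-coding gene, 16 of 40 were higher and 8 were lower at an adjusted p under 0.05, and 2 passed both limits. Of all genes tested, 25.5% were higher and 25.0% were lower, and 11.8% passed both limits in either direction. For genes tested with a mean count of 500 or more, these shares were 25.4%, 32.9% and 1.66%. 9030619P08Rik (ENSMUSG00000121494, chromosome 15, 75299450 to 75303678), which the table describes as a pseudogene of the lymphocyte antigen 6 complex, had 21.3, 17.3 and 17.1 CPM in Ctrl and 30.5, 59.0 and 34.3 CPM in l-FA. The log2 fold change was 1.15 (SE 0.26, adjusted p = 0.00974 from edgeR), and without the second l-FA library it was 0.82, under 2-fold. The same symbol stands on a second row, a transcribed pseudogene that overlaps it, with a mean of 2.17 counts. Erdr1x (ENSMUSG00000095562, chromosome X, 168792690 to 168801793), a copy of the erythroid differentiation regulator gene at the end of the X chromosome, had 46.1, 48.7 and 51.9 CPM in Ctrl and 20.6, 18.6 and 10.3 CPM in l-FA. The fall was seen in all l-FA libraries, with a log2 fold change of -1.57 (SE 0.24, adjusted p = 0.00193 from edgeR), and was -1.31 without the third l-FA library. Its copy on chromosome Y, Erdr1y (ENSMUSG00000096768), had 143, 128 and 131 CPM in Ctrl and 92.0, 88.8 and 92.9 CPM in l-FA. Erdr1y fell as well (log2 fold change -0.56, SE 0.049, adjusted p = 0.000207 from edgeR). The copies share 480 words of 50 bases, 59.4% of those of Erdr1x, so the split of reads between them is uncertain. Although the deposited annotation names both as lncRNA, M21 gives the same identifiers as protein-coding genes, Gm21887 for Erdr1x and Gm47283 for Erdr1y.

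Several further genes of this class rose by less than 2-fold, and they are named here after their values were seen. Gm56930 (log2 fold change 0.84), I730030J21Rik (0.76), Gm19590 (0.73), Cep83os (0.55) and 2810013P06Rik (0.52) each had all l-FA libraries above all Ctrl libraries. I730030J21Rik went from 27.4 ± 0.435 to 46.6 ± 2.07 CPM and Gm19590 from 91.6 ± 2.78 to 151 ± 4.79 CPM (SD, n = 3). Libraries of Gm56930 were spread more for its level, with 19.7 ± 2.55 CPM in Ctrl and 35.1 ± 2.21 CPM in l-FA (SD, n = 3). Gm56930 lies 27706 bases from Gata2, the gene of a transcription factor of HSCs, which had a log2 fold change of 0.27 (adjusted p = 0.180 from edgeR). Gm19590 lies 97182 bases from Kdr, a receptor gene at 1.92 ± 0.219 CPM in Ctrl and 3.29 ± 0.627 CPM in l-FA (SD, n = 3; log2 fold change 0.78, adjusted p = 0.0141 from edgeR). Cep83os and 2810013P06Rik lie 54 and 140 bases from Cep83 and Ankrd11, on the opposite strand. Cep83 fell (log2 fold change -0.20, adjusted p = 0.0280 from edgeR) while Cep83os rose, and Ankrd11 had a log2 fold change of -0.047 (adjusted p = 0.673). Of the 40 genes, 4 lay within 1000 bases of their nearest protein-coding gene, 12 within 5000 bases and 8 over 100000 bases away. Over all 52 genes with sequence in M21, 11 of the 19 with under 1% shared words were higher and 8 did not pass, whereas of the 9 with 50% or more shared words 3 were higher, 1 was lower and 5 did not pass. The shares of all genes tested were 25.5% higher and 25.0% lower.

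Of the 21 genes that overlapped a protein-coding gene, 8 were higher and 4 were lower at an adjusted p under 0.05 and 2 passed both limits, both lower. The shares of all genes tested were 25.5% higher and 25.0% lower, and 5.10% were lower past both limits. These 21 genes formed 29 pairs with protein-coding genes, 13 with a single partner and 8 with a pair of partners. The lncRNA gene lay on the opposite strand in 14 pairs, on the same strand in 11, and the strand was not looked up in 4 pairs whose lncRNA gene is not in M21. The log2 fold changes of lncRNA gene and partner had the same sign in 20 of the 28 pairs whose partner was tested. Exons overlapped in 21 pairs and did not in 4. Where exons overlap, reads from the shared bases cannot be told apart here, so the values of such a pair are not independent.

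**Figure D4:**
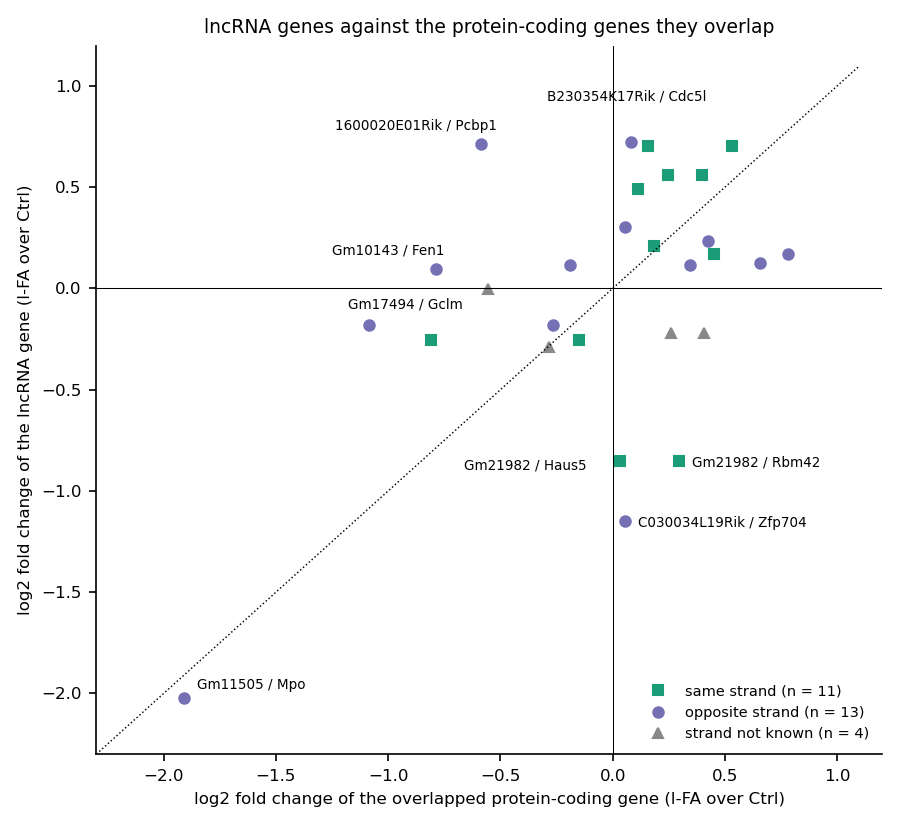
Log2 fold change (l-FA over Ctrl) of each lncRNA gene (vertical axis) against that of the protein-coding gene it overlaps (horizontal axis), 28 pairs, by relative strand in M21. The dotted line marks equal change: Gm11505 and Mpo lie near it at about -2, whereas C030034L19Rik, 1600020E01Rik and B230354K17Rik lie far from it.

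Gm11505 (ENSMUSG00000085872, chromosome 11, 87686610 to 87691970) had the largest fall. It had 316, 325 and 310 CPM in Ctrl and 78.9, 74.4 and 81.0 CPM in l-FA, so that all l-FA libraries lay far below all Ctrl libraries. The log2 fold change was -2.02 (SE 0.040, adjusted p = 1.26e-06 from edgeR), a 4.06-fold fall. Gm11505 lies wholly within Mpo, the gene of the myeloperoxidase of neutrophil and monocyte granules, on its opposite strand, and 512 bases (69.5%) of its exons lie on exons of Mpo. Mpo went from 18544 ± 505 to 4938 ± 167 CPM (SD, n = 3), a log2 fold change of -1.91 (SE 0.030, adjusted p = 6.54e-07 from edgeR). The count of Gm11505 was 1.70% to 1.71% of that of Mpo in Ctrl and 1.46% to 1.66% in l-FA. The neutrophil and monocyte markers are given beside it, 10 of 12 lower past 2-fold, 2 higher and none at 0. Of all genes tested, 5.10% were lower past 2-fold. The markers summed to 23305 to 24156 CPM in Ctrl against 6155 to 6471 CPM in l-FA. Mpo made up most of that sum, which without Mpo was 5052 to 5184 CPM in Ctrl and 1385 to 1397 CPM in l-FA, and the part of these markers in the fall of Gm11505 was not tested.

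C030034L19Rik (ENSMUSG00000097365, chromosome 3, 9468124 to 9502293) overlaps 10214 bases of Zfp704, a zinc finger gene, on the opposite strand, and 43.6% of its exon bases lie on exons of Zfp704. It had 40.5, 35.9 and 38.3 CPM in Ctrl and 20.9, 14.5 and 16.3 CPM in l-FA. It fell in all l-FA libraries (log2 fold change -1.15, SE 0.14, adjusted p = 0.000706 from edgeR), while Zfp704 had 41.3 ± 2.67 and 43.0 ± 2.08 CPM (SD, n = 3; log2 fold change 0.057, adjusted p = 0.504). Its count was 80.8% to 103% of that of Zfp704 in Ctrl and 33.6% to 51.2% in l-FA. A pair with opposite signs was 1600020E01Rik and Pcbp1, the gene of a poly(C)-binding protein, which share 75 bases. 1600020E01Rik rose (log2 fold change 0.71, SE 0.079, adjusted p = 0.000511 from edgeR), whereas Pcbp1 fell from 183 ± 3.70 to 122 ± 5.32 CPM (SD, n = 3; log2 fold change -0.59). B230354K17Rik overlaps Spats1, whose counts were too low to test, and shares 140 bases with Cdc5l, which encodes a splicing factor, and rose from 22.9 ± 0.689 to 37.8 ± 1.15 CPM (SD, n = 3; log2 fold change 0.72, adjusted p = 0.000102 from edgeR), whereas Cdc5l had a log2 fold change of 0.081 (adjusted p = 0.135). These pairs other than C030034L19Rik were named after their values were seen.

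Gm57050, which had the next highest FPKM after Gm11505, shares 93.0% of its length with Gpx1, the gene of a glutathione peroxidase. It had 170, 177 and 168 CPM in Ctrl and 143, 135 and 144 CPM in l-FA (log2 fold change -0.29, SE 0.037, adjusted p = 0.000909 from edgeR), and Gpx1 had a log2 fold change of -0.29 too (adjusted p = 0.000817). The count of Gm57050 was 99.1% to 114% of that of Gpx1 in each library, so the table listed nearly equal counts at this place for both. Ppp1ccb, which followed it by FPKM, carries the name of a protein phosphatase subunit and stands on a second row as a transcribed pseudogene at the same place. Its lncRNA row fell from 140 ± 3.19 to 112 ± 4.46 CPM (SD, n = 3), a log2 fold change of -0.32 (SE 0.039, adjusted p = 0.000778 from edgeR). The pseudogene row had 108, 109 and 110 CPM in Ctrl and 101, 107 and 104 CPM in l-FA. In all, the symbol stood on a second row for 4 of the 61 genes, and 19 of the 61 overlapped a listed row that is neither protein-coding nor a small RNA.

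Genes that run along neighbouring protein-coding genes on the same strand carried their exons. Gm21982 (chromosome 7, 30340426 to 30364362) has 51.1% of its exon bases on exons of Haus5, a subunit of a microtubule-organizing complex, and 43.2% on exons of Rbm42, an RNA-binding protein. It had 120, 124 and 119 CPM in Ctrl and 12.2, 117 and 72.1 CPM in l-FA, so the first l-FA library lay far below all others. Rbm42 had 135, 141 and 139 CPM in Ctrl and 219, 127 and 163 CPM in l-FA, and was highest in the library in which Gm21982 was lowest. The summed CPM of Gm21982 and Rbm42 was 254, 265 and 258 in Ctrl and 231, 244 and 235 in l-FA, a range of 1.05-fold within l-FA, where Gm21982 alone ranged over 9.58-fold. Haus5 had 111, 106 and 116 CPM in Ctrl and 117, 112 and 112 CPM in l-FA, and its sum with Gm21982 was 130, 229 and 184 CPM in l-FA, a range of 1.76-fold. The log2 fold change of Gm21982 was -0.85 (SE 0.66, adjusted p = 0.329 from edgeR) and was -0.34 without the first l-FA library. Gm28177, another gene of this kind, rose (log2 fold change 0.70, SE 0.12, adjusted p = 0.00330 from edgeR).

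For 6 of the 61 genes, 1 library differed by 2-fold or more from each of the remaining libraries of its group, and edgeR gave all 6 an adjusted p of 0.0650 or more. AI662270 had 165, 160 and 145 CPM in Ctrl and 127, 37.6 and 53.5 CPM in l-FA. The groups did not overlap, with a log2 fold change of -1.11 (SE 0.42, adjusted p = 0.0650 from edgeR), and without the first l-FA library it was -1.77 (adjusted p = 0.000908). The only row that overlaps it has no name or type in the table and had 13.1 to 14.4 CPM in Ctrl and 8.71 to 10.3 CPM in l-FA. 4933404O12Rik had 43.3, 44.3 and 46.2 CPM in Ctrl and 36.3, 45.2 and 4.01 CPM in l-FA, where the third library stood alone (log2 fold change -0.64, and -0.12 without it). Gm10143, opposite to Fen1 and with 57.3% of its exon bases on it, had 26.1, 31.1 and 39.1 CPM in Ctrl and 48.1, 9.92 and 45.0 CPM in l-FA, and its log2 fold change of 0.098 was 0.55 without the second l-FA library (adjusted p = 0.0431 from edgeR). Fen1, the gene of a flap endonuclease, had 350 CPM in the first Ctrl library and 50.5 to 94.7 CPM in the other libraries. Chaserr is a lncRNA that lies mostly upstream of Chd2 and restrains it. By the listed positions it shares 2030 bases with Chd2. In M21 both lie on the same strand, and 2628 bases (30.5%) of Chaserr exons lie on Chd2 exons, so the gene models differ between the annotations. Chaserr had 40.5, 45.2 and 17.2 CPM in Ctrl and 37.5, 42.6 and 39.0 CPM in l-FA. The third Ctrl library was low, the log2 fold change was 0.21 (adjusted p = 0.626 from edgeR), and without that library it was -0.12. Snhg15 is described above with the snoRNA hosts, and without its first Ctrl library the log2 fold change was 0.24. The libraries that stood apart differed from gene to gene, namely the first l-FA library for AI662270 and Gm21982, the second for Gm10143, the third for 4933404O12Rik, the first Ctrl library for Snhg15 and the third for Chaserr.

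**Figure D5:**
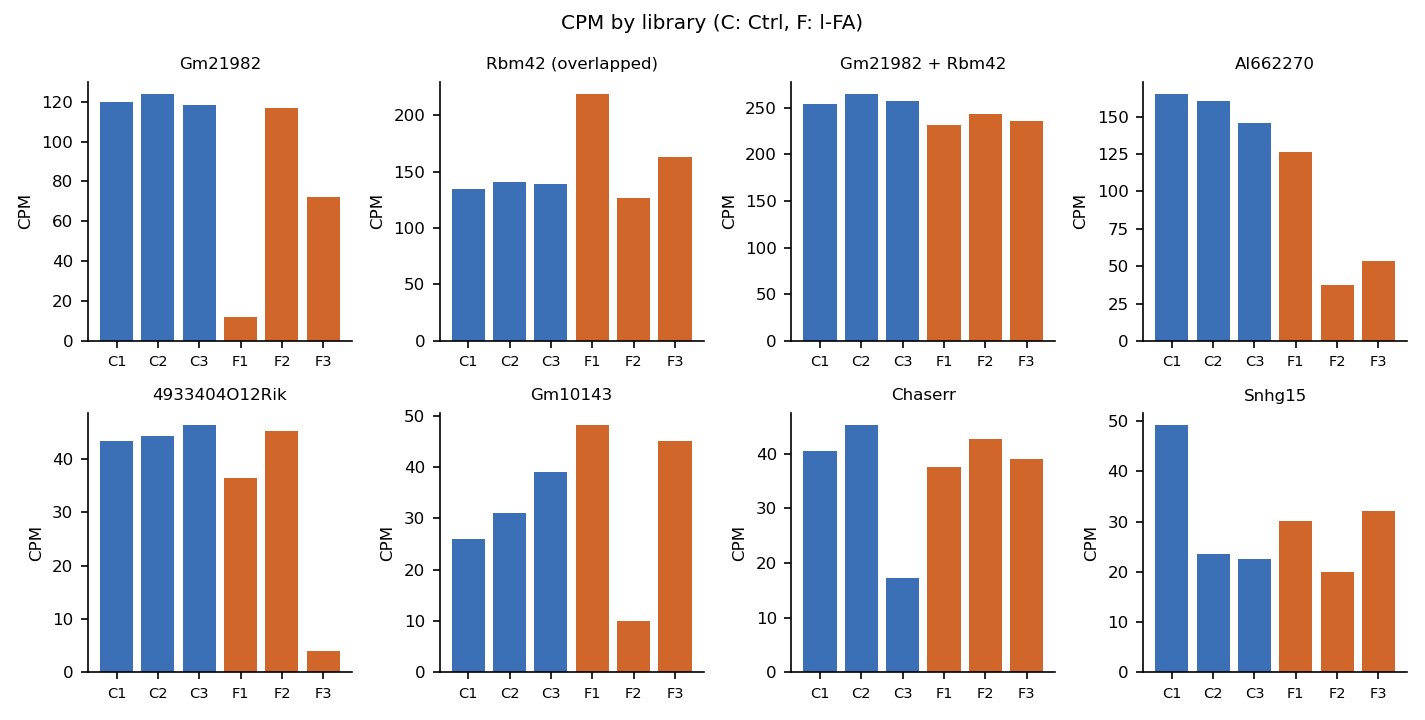
CPM (vertical axes, from 0) in each library (C1 to C3 Ctrl, F1 to F3 l-FA) of the 6 genes in which 1 library differed by 2-fold or more from each of the rest of its group, with Rbm42 and the sum of Gm21982 and Rbm42. The bar of Gm21982 in F1 (12.2 CPM) is low where that of Rbm42 (219 CPM) is high, and the bars of the sum run from 231 to 265 CPM. The sum of Gm21982 and Haus5, which is not drawn, ran from 130 to 229 CPM within l-FA.

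Transcribed copies of mRNAs made up another group, named after their values were seen. Gm10076, with 69.9% of its words of 50 bases in Rpl41, a ribosomal protein gene, had 38.8 ± 5.36 CPM in Ctrl and 42.3 ± 1.88 CPM in l-FA (SD, n = 3; log2 fold change 0.12, adjusted p = 0.344 from edgeR). Rpl41 itself was spread widely in Ctrl, with 103 ± 42.6 CPM there and 95.3 ± 10.1 CPM in l-FA (SD, n = 3). Ubb-ps, a pseudogene of the ubiquitin gene Ubb, rose from 105 ± 1.89 to 116 ± 1.17 CPM (log2 fold change 0.14, adjusted p = 0.00773 from edgeR), and Ubb rose from 4653 ± 27.4 to 4943 ± 44.4 CPM (SD, n = 3; log2 fold change 0.087, adjusted p = 0.00126). A second row named Ubb-ps overlaps the lncRNA row and held more counts, with 1535 to 1617 CPM in Ctrl and 1672 to 1737 CPM in l-FA. Gm47882, with 24.5% of its words in the pseudogene Gm7446 inside it and 24.2% in Hnrnpf, a gene of a splicing factor, fell (log2 fold change -0.15, adjusted p = 0.0241 from edgeR), as did Hnrnpf (-0.23). How reads with several possible places were assigned is not given in the sources used here.

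The remaining genes, also named after their values were seen, all differed by less than 2-fold between groups. By edgeR's adjusted p, 25.5% of all genes tested were higher and 25.0% were lower. Of the 23 genes not named so far, 6 were higher, 3 were lower and 14 did not pass. The higher ones ran from D130058E05Rik (log2 fold change 0.17) to Gm50230 (0.56), and the lower ones were Gm17494 (-0.18), Gm43305 (-0.22) and B020010K11Rik (-0.23). Gm17494 fell from 230 to 203 CPM, whereas Gclm, an enzyme gene of glutathione synthesis that it overlaps on the opposite strand, fell from 78.2 ± 3.04 to 36.9 ± 3.04 CPM (SD, n = 3; log2 fold change -1.09). Gm50230 shares exons with Tbc1d10c and Carns1 on the same strand, and Tbc1d10c rose by 0.40 on the log2 scale. Gm20427, which runs along Hsd17b8 and the zinc transporter gene Slc39a7, had a log2 fold change of -0.25 (adjusted p = 0.412 from edgeR), whereas Slc39a7 had -0.81 (adjusted p = 0.00197).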

How the data were processed

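RNA of sorted HSCs was sequenced in 3 Ctrl and 3 l-FA libraries. The values deposited by the authors were raw whole-number counts of each gene and FPKM values, which divide the counts by gene length and library total; FPKM was used only to compare levels between genes. The submitters' processing notes name HISAT2, SAMtools 1.3.1, StringTie, edgeR and the build GRCm39, without roles; the paper's methods name DESeq2 with limits of 2-fold and 0.05 on the adjusted p. The members and gene lists were chosen with earlier results of these data known.

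The test was the quasi-likelihood test of edgeR (version 4.0.16, R 4.3.3) after TMM scaling and filterByExpr, which kept 16520 of 27198 genes and all 61 members, and p-values were adjusted by Benjamini-Hochberg over those kept. An SE was obtained as the absolute log2 fold change over the root of F. The code was tested on simulated data. Genes named in the text were those on role lists, those past both limits, the 5 highest by FPKM, those at the limit of 500, those with 1 library that stood apart by 2-fold, and their overlapping or nearest genes; all other genes were named after their values were seen. Strand, exons and shared words came from GENCODE M21 (GRCm38) by gene identifier, with no coordinates converted. Alternatives were DESeq2 1.42.0, other scalings, filters, abundance limits, a replicate block and each library left out. The cDNA was amplified without molecular identifiers, so counts are not independent molecules. Depth was 19287735 to 20380610 counts per library. Some overlapping genes are not reported here.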

Additional observations from a re-analysis of the deposited data

How the results depend on the processing

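The counts of genes past both limits (1 higher, 3 lower) kept within 1.5-fold under DESeq2, RLE and upper-quartile scaling, no filter, and at least 10 counts in every library. Testing beyond a 1.2-fold change instead (glmTreat) gave 15 higher and 6 lower. The median log2 fold change over the members, 0.12, was 0.13 with DESeq2 and 0.15 with upper-quartile scaling. It was 0.17 for the 123 genes with a mean count of 250 or more, 0.014 for the 25 with 1000 or more and 0.079 for the 48 with 500 in each group, and the percent past both limits was 4.0 and 2.08 in these last sets. In alternatives chosen after seeing the data, the median was 0.14 without the 6 members that have a far library and 0.17 for the 43 with under 50% shared words. Counting an overlap only from 50% of the lncRNA gene left 1 overlapping gene past both limits. With each library left out in turn, the higher genes past both limits numbered 0 to 1, the lower 3 to 4, those not overlapping a protein-coding gene 1 to 3, and the median ran from 0.12 to 0.16; the counts of 0 higher and 1 not overlapping came without l-FA replicate 2, in edgeR. The counts with no fold limit were 19 to 24 higher and 11 to 12 lower. Over 23 named members and 12 settings each, 255 values kept direction and side of the threshold, 5 gained the call, 8 lost it (AW112010 and 2410006H16Rik), and 8 changed sign. The sign changes were in members that did not pass: over the libraries left out, Oip5os1 ran from -0.17 to 0.38 (negative without Ctrl replicate 3 and l-FA replicate 2), Chaserr from -0.12 to 0.46 (negative without Ctrl replicate 3), Snhg15 from -0.42 to 0.24 (positive without Ctrl replicate 1) and Gm10143 from -0.21 to 0.55. The cause was not tested. Gas5 passed with DESeq2 (0.13, adjusted p = 0.0213) and with upper-quartile scaling (0.15, adjusted p = 0.0425 from edgeR).

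With the replicate number as a block, 1 member was higher and 4 were lower past both limits, 20 were higher and 13 lower with no fold limit, and the median was 0.13. AI662270 then passed (-1.30, adjusted p = 0.0393 from edgeR), 2410006H16Rik did not (0.31, adjusted p = 0.0751) and Gm10143 changed sign (-0.13). Deviations of same-numbered libraries from their group means correlated at 0.019, -0.013 and -0.050, so the numbers do not pair the libraries. The median SE was 0.063 over the members and 0.47 over the 6 with a library that stands apart.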
